A study of Mus musculus with 4 samples.

Results

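The 8 genes described here encode secreted and membrane-bound proteases of the extracellular matrix with their inhibitors and a protease receptor: the matrix metalloproteinases Mmp8, Mmp9 and Mmp27, the membrane metalloprotease Adam8, urokinase (Plau), the urokinase receptor (Plaur), and the tissue inhibitors of metalloproteinases Timp1 and Timp2. They were picked by symbol from the deposited table because strong rises had been seen in the knockout, so their differences between the genotypes are given as a description, without a test. All 8 of 8 had a row among the 28141 rows of the table. The label of strong rises held for 6 of the 8, since Plau was lower in the knockout and Timp2 did not separate the groups.

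The series compared leukaemia cells from the bone marrow of C57BL/6 mice in 2 groups of 2 libraries each, labelled LSCs-WT (wild type for Ybx1, here WT) and LSCs-YBX1cKO (conditional knockout of Ybx1, here cKO). The protein of Ybx1 belongs to the Y-box family of nucleic acid binders, and the series title names chronic myeloid leukaemia. The labels call both groups LSCs, while the oncogene, the Cre driver, the age of the mice and any pooling are not given in the sources used here. Separate animals are not stated for the replicates, so p-values reflect only how these libraries vary, which may be technical.

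Metalloproteinases are made as inactive precursors and cut collagens, gelatin and other matrix proteins once their prodomain is removed; TIMPs block the active enzymes. Urokinase bound to its receptor turns plasminogen into plasmin, which can in turn activate metalloproteinases. In the bone marrow, Mmp8 and Mmp9 are stored in the granules of maturing neutrophils, and metalloproteinase and urokinase receptor activity is known for its part in the release of blood cells from the marrow.

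Each value below is on a log2 scale inferred from the noise between replicates, obtained by multiplying the deposited scores by 0.693. If the scores were plain log2, each log2 difference would be 1.44 times as large. Ybx1 itself stood at log2 levels of 9.31 and 9.41 in WT and 8.19 and 8.13 in cKO, lower in both cKO libraries. Back-transformed levels summed to 11074317 to 11157952 in WT and 12104617 to 12134026 in cKO, which are not known to be counts, so the depth is unknown. Levels per 1000000 are shares of these sums. Since the cKO sums were higher, ratios of these shares are slightly smaller than the folds, which come from the log2 levels. Among stem and progenitor markers, Kit and Cd34 had no row in this table. The 6 of 11 listed markers with a row summed to 516 and 532 per 1000000 in WT and 333 and 341 in cKO. Most of that sum was Mecom (302 to 182 on average) and Gata2 (183 to 124). Both fell, as did Ly6a, while Procr, Hoxa9 and Myb were not called. The macrophage marker Adgre1 averaged 5210 per 1000000 in WT and 5090 in cKO, while its log2 level was 0.09 higher in cKO (SE 0.02, limma adjusted p = 3.3e-05). Other summed markers also differed between the groups: T and NK cell markers (2 of 11 with a row) from 70.4 and 74.5 in WT to 35.5 and 35.4 in cKO, erythroid markers (4 of 12) from 197 and 189 to 141 and 132. Platelet markers (9 of 9) went from 487 and 509 to 680 and 696, which was carried by Ppbp (81.5 to 320 on average); Ppbp and Pf4 rose, while Itga2b, Itgb3 and Tubb1 fell. Basophil and mast cell markers (3 of 8) went from 354 and 363 to 305 and 299. This was carried by Gata2, which is also among the stem and progenitor markers, while Cpa3 was called higher (174 to 177 on average) and Cma1 was not called. The 1 B cell marker with a row went from 22.0 and 23.9 to 26.4 and 24.0. Dendritic cell markers (3 of 9) went from 123 and 124 to 179 and 180, a rise of Cd74 (103 to 170 on average), while Ccr7 fell from 18.7 to 8.65. Their part in the results below was not tested. In bulk RNA of this kind, fewer cells of a type and less RNA per cell cannot be told apart.

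Mmp8, the neutrophil collagenase, had log2 levels of 9.27 and 9.44 in WT and 12.08 and 12.12 in cKO. Both cKO libraries lay above both WT libraries, by at least 2.64 log2 units. The difference of the means was 2.75 (SE 0.05), which is 6.72-fold, and the level rose from 58.9 to 362 per 1000000 on average. Mmp27, a less studied family member, was a weakly expressed gene in WT, with log2 levels of 4.33 and 4.0, and reached 7.34 and 7.15 in cKO. Its groups did not overlap either, and the difference of 3.08 (SE 0.23), or 8.48-fold, was the second highest among the 15527 genes that passed the filter on low values. Mmp9, gelatinase B, stood at log2 levels of 11.31 and 11.38 in WT and 13.01 and 13.02 in cKO. The cKO libraries were again both the higher ones, with a difference of 1.67 (SE 0.03), or 3.19-fold.

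Adam8, a metalloprotease and disintegrin on the surface of leukocytes, was the most abundant of the 8. Its log2 levels were 14.22 and 14.21 in WT and 15.27 and 15.30 in cKO, a difference of 1.07 (SE 0.02), or 2.1-fold, with no overlap of the groups. Its mean level over the 4 libraries lay above those of 99.9% of the tested genes. The difference was smaller, at 0.68, when the libraries were brought to one distribution by quantile normalization. The last 46 bases of Adam8 overlap the predicted transcript Gm16201 on the opposite strand, and reads from that stretch cannot be told apart without knowledge of the strand.

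**Figure D1:**
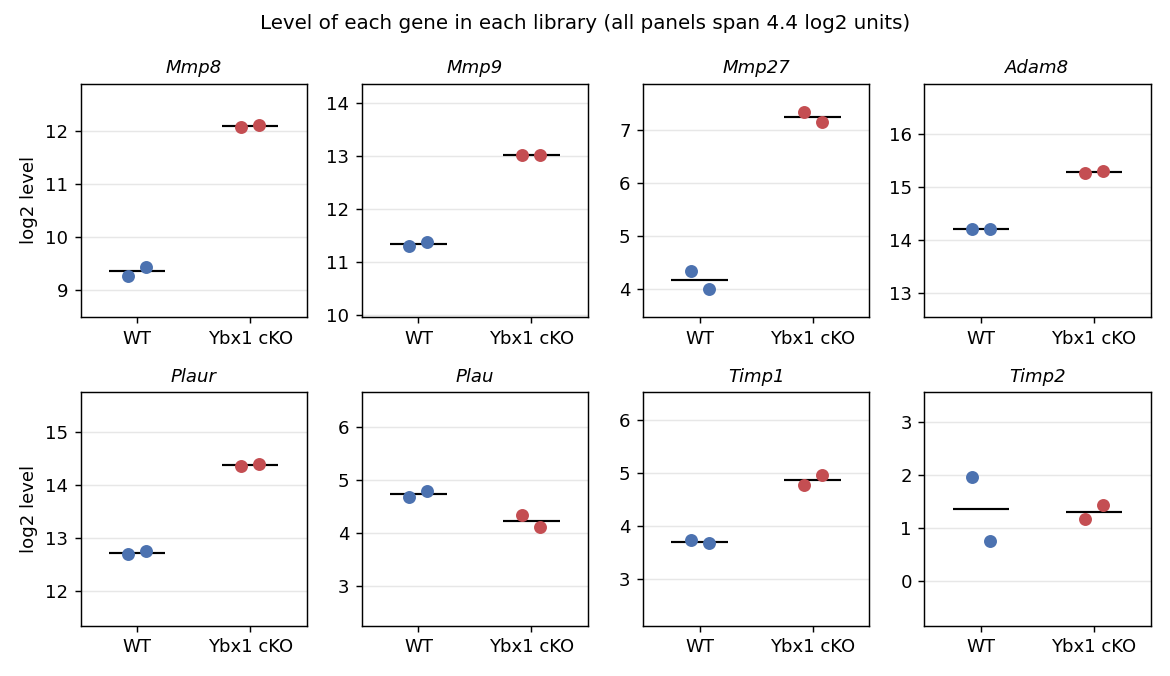
Log2 level (y axis) of each of the 8 genes in the 2 WT and the 2 Ybx1 cKO libraries (points), with the group mean as a line; each panel spans 4.4 log2 units. For Mmp8, Mmp9, Mmp27, Adam8, Plaur and Timp1 both cKO points lie above both WT points, for Plau below them, and for Timp2 the groups overlap.

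The urokinase receptor was higher in cKO, while its ligand showed no clear difference. Plaur had log2 levels of 12.70 and 12.75 in WT and 14.36 and 14.40 in cKO, a difference of 1.65 (SE 0.02), or 3.14-fold. Both cKO libraries were above both WT libraries. Plau had log2 levels of 4.69 and 4.80 in WT and 4.35 and 4.12 in cKO. Here both cKO libraries were the lower ones, but the difference of -0.51 (SE 0.31) was not large against its error. Per exon length, the receptor transcript stood at 233 per 1000000 per kb in WT and 672 in cKO, and the ligand at 1.02 and 0.658.

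Of the inhibitors, Timp1 stood at log2 levels of 3.74 and 3.68 in WT and 4.78 and 4.97 in cKO, with no overlap of the groups. The difference was 1.16 (SE 0.33), or 2.24-fold, at a low level of 1.18 per 1000000 in WT and 2.42 in cKO. Timp1 lies inside the gene Syn1, which is read from the opposite strand and whose own log2 level was below 0 in every library. Timp2 was close to the detection limit, with log2 levels of 1.96 and 0.76 in WT and 1.18 and 1.44 in cKO. The cKO values lay between the 2 WT values, and the difference was -0.05 (SE 0.53).

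Counted together, both cKO values lay above both WT values for 6 of the 8 genes and below them for 1, and 1 overlapped. Over all 15527 genes the groups did not overlap for 65.1%, with cKO higher for 32.7% and lower for 32.4%. The same 6 genes were at least 2-fold higher by the difference of the means, which was seen for 3.1% of all genes. Since the genes were picked for their rises, nothing is read from these shares. All 8 would have passed the filter from their WT values alone, with a deposited score of at least 1 in both WT libraries. A score of at least 5 in all 4 libraries was reached by 7 of them, Timp2 being the exception.

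The order of the levels per exon length was the same at its top in both genotypes. In WT it ran from Adam8 (369 per 1000000 per kb) over Plaur (233), Mmp9 (66.0) and Mmp8 (24.3) to Timp1 (1.33), Plau (1.02), Mmp27 (0.734) and Timp2 (0.0642). In cKO it ran from Adam8 (710) over Plaur (672), Mmp9 (193) and Mmp8 (149) to Mmp27 (5.69), Timp1 (2.73), Plau (0.658) and Timp2 (0.0528). Neighbouring genes in either order did not overlap between their 2 libraries. Adam8 and Plaur were closest in cKO, at 705 and 715 against 663 and 681, and Mmp27 passed from below Timp1 and Plau in WT to above both in cKO. Lengths are those of all annotated exons in GENCODE M21, from 888 bases for Timp1 to 4638 for Adam8, and the lengths used in the authors' counting are not given in the sources used here.

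**Figure D2:**
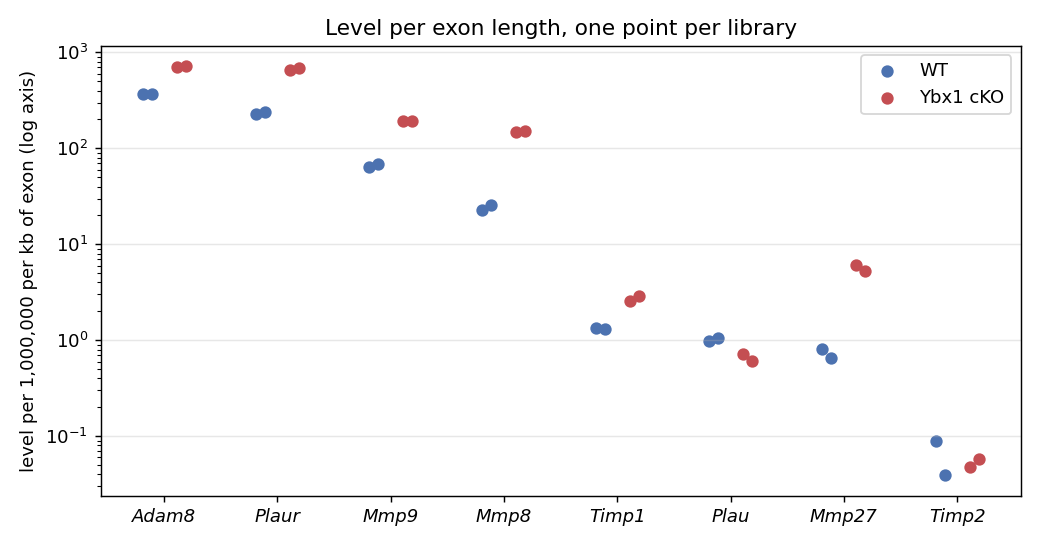
Level per 1000000 of the library sum and per kb of annotated exon (y axis, log scale) for the 8 genes in the order of their WT level, with 1 point per library, WT in blue and Ybx1 cKO in red. Adam8, Plaur, Mmp9 and Mmp8 lie above 22 in every library, and Timp1, Plau, Mmp27 and Timp2 at 6.07 or lower.

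Mmp8 and Mmp27 are direct neighbours in the metalloproteinase cluster of chromosome 9, a row of related genes that arose by duplication. In GRCm38, Mmp8 (ENSMUSG00000005800.3) lies on chromosome 9 from 7558456 to 7568485 and Mmp27 (ENSMUSG00000070323.11) from 7571396 to 7581885, both on the plus strand with 2910 bases between them. The cluster held 8 family genes with a row over 402 kb. Of the other 6, 4 could be tested, 2 of which fell, where 17.8% of all 15527 genes fell. Mmp13, collagenase 3, fell from log2 levels of 9.25 and 9.18 in WT to 8.20 and 8.5 in cKO (log2 difference -0.87, SE 0.09, limma adjusted p = 2.7e-08). Mmp3, stromelysin 1, fell from 8.98 and 9.02 to 8.46 and 8.56 (log2 difference -0.49, SE 0.08, limma adjusted p = 2.6e-05). Mmp12, the macrophage elastase, had a log2 difference of 0.41 (SE 0.31, limma adjusted p = 0.34), and Mmp10, stromelysin 2, one of 0.10 (SE 0.54, limma adjusted p = 0.92). Mmp1b and Mmp20 were too low to be tested, with log2 levels under 0 in every library. Stromal cells are a textbook source of Mmp3 and Mmp13. Of 12 stromal and endothelial markers, 10 had a row and 8 were tested, of which Acta2 rose and Pecam1 fell. Of all genes, 19.5% rose and 17.8% fell. The summed level of these markers was 473 and 494 per 1000000 in WT and 259 and 267 in cKO, most of it Pecam1. The collagen genes Col1a1, Col1a2 and Col3a1 each averaged under 0.60 per 1000000 in both groups, and the endothelial genes Cdh5 and Emcn were too low to be tested. The part of these cells in the falls was not tested.

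**Figure D3:**
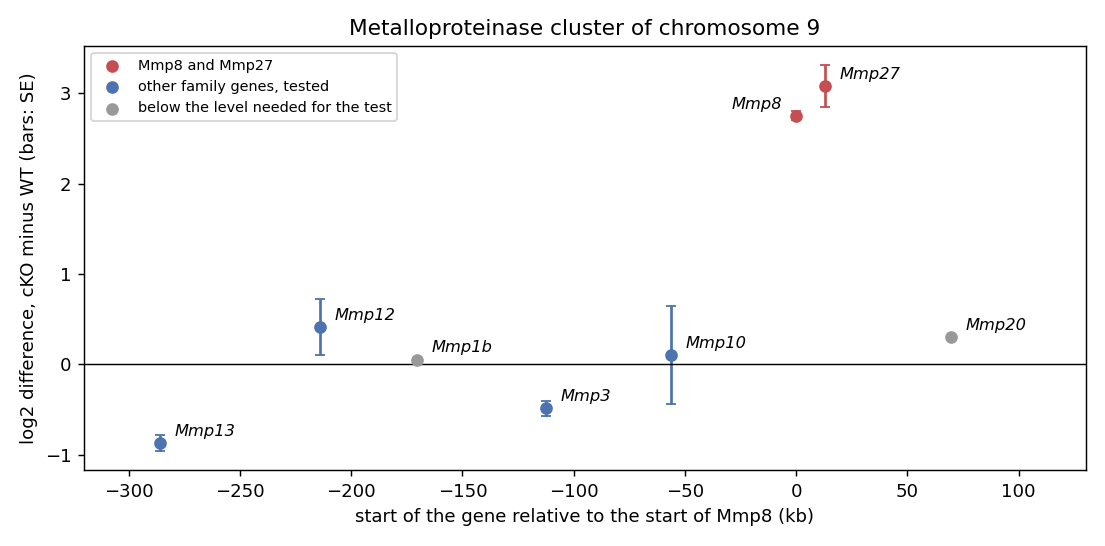
Log2 difference between cKO and WT (y axis, bars are SE) for the 8 family genes of the chromosome 9 cluster against the distance of their start from that of Mmp8 (x axis, kb). Mmp8 and Mmp27 stand at 2.75 and 3.08, while the other 6 lie between -0.87 and 0.41.

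The sequences upstream of these genes are shown because neighbours in one cluster differed in direction. Since Mmp8 and Mmp27 were picked for their rises, that split was partly set by the choice of genes. The 250 bases before the RefSeq start (GRCm38.p6, plus strand, written 5′ to 3′) are given for Mmp8 (chr9:7558179-7558428), Mmp27 (chr9:7571146-7571395), Mmp3 (chr9:7445572-7445821) and Mmp13 (chr9:7272264-7272513). Capitals mark matches on either strand to 4 motifs. These were TGANTCA for the factor AP-1, TTGCNNAA for the C/EBP family, GAGGAA for the granulocyte and macrophage factor PU.1, and the TATA box spelled TATAAA. The NF-kB motif was searched as well and had no match here. No 2 of the matches shown overlap.
Mmp8: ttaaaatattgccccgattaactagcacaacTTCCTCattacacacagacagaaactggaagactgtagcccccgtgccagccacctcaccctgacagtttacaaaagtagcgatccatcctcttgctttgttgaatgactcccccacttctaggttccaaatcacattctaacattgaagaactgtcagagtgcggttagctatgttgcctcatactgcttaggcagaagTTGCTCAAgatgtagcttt
Mmp27: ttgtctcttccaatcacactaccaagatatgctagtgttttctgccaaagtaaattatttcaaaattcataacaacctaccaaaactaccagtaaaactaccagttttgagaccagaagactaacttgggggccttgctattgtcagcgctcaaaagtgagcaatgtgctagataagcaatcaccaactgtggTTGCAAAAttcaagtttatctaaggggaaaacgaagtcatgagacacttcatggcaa
Mmp3: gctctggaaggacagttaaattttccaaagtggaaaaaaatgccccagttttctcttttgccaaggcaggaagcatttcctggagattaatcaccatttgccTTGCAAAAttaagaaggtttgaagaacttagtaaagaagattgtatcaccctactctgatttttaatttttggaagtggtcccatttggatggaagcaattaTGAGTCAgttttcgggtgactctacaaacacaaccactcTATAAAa
Mmp13: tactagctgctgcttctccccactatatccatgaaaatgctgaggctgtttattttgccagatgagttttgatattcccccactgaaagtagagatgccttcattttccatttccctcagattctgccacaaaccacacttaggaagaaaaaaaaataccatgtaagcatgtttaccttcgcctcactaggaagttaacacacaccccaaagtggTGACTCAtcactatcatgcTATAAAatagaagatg

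The letters TGANTCA stood 46 bases before the start of Mmp3 (TGAGTCA) and 35 bases before that of Mmp13 (TGACTCA). All 6 cluster genes with a row other than Mmp8 and Mmp27 held this motif in such a window, although Mmp12 has 2 annotated starts and only 1 of its windows did. TATAAA was held by 5 of these 6. Neither motif was found in the windows of Mmp8 and Mmp27, which says only that these letters are not in these 250 bases. TTGCNNAA stood 19 bases before the start of Mmp8 (TTGCTCAA), 57 before that of Mmp27 (TTGCAAAA) and 148 before that of Mmp3 (TTGCAAAA), and GAGGAA, on the opposite strand, 219 before that of Mmp8. Of 32817 windows of this length in the RefSeq table, 6.75% held TGANTCA, 9.57% TTGCNNAA, 23.3% GAGGAA, 4.65% the NF-kB motif and 12.4% TATAAA. A match is a description and not evidence of binding.

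Plaur, another gene of the 8 with a high level and a window, lies on chromosome 7 from 24462484 to 24475968 (ENSMUSG00000046223.10, plus strand), and its window (chr7:24462233-24462482, same search) is shown because it holds both TGANTCA and TTGCNNAA.
Plaur: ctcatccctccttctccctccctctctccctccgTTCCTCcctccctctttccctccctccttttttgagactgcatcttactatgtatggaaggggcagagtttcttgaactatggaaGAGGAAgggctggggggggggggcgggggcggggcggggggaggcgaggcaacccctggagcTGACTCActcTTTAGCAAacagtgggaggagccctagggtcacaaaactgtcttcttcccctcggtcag

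In Plaur, TGACTCA stood 69 bases before the start, a C/EBP match on the opposite strand (TTTAGCAA) 59 bases before it, and GAGGAA matches 131 and 216 bases before it, the farther one on the opposite strand. Windows were found for 6 of the 8 genes. Of these, Plaur alone held TGANTCA, while Mmp8, Mmp27, Adam8 and Plaur, 4 of the 6, held TTGCNNAA. The windows of Timp1 and Timp2 held none of the 5 motifs. Mmp9 and Plau had no window.

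Transcription factors known at such promoters were followed as a list. Of 27 tested, 10 rose and 7 fell (63.0% called, against 37.4% of all 15527 genes, of which 19.5% rose and 17.8% fell), with a list median of -0.02 against 0.00 over all genes. Only 5 of the rises and 2 of the falls also passed in each of the 4 fits that left out 1 library. Cebpe, the C/EBP factor of late granulocyte maturation, rose from log2 levels of 10.19 and 10.20 in WT to 11.19 and 11.20 in cKO (difference 1.0, SE 0.04, limma adjusted p = 5.5e-15). Spi1, which encodes PU.1, rose by 0.53 (SE 0.05, limma adjusted p = 9.6e-09). The NF-kB subunit genes split, with Nfkb2 down by a log2 difference of -0.67 (SE 0.04, limma adjusted p = 1.0e-13) and Nfkb1 up by 0.31 (SE 0.04, limma adjusted p = 3.8e-07). The Fos and Jun genes of AP-1, described here after their values were seen, split as well. Fosl2 rose by 0.76 (SE 0.12, limma adjusted p = 2.2e-05) and Fos by 0.43 (SE 0.15, limma adjusted p = 0.026), Fosb fell by 1.13 (SE 0.38, limma adjusted p = 0.023) and Junb by 0.10 (SE 0.03, limma adjusted p = 0.022), and Fosl1, Jun and Jund did not pass. Among these 4 calls only that of Fosl2 was kept in each fit without 1 library.

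The genes around the urokinase receptor moved in both directions. Of 13 tested genes of plasminogen activators, inhibitors and receptors, 6 rose, 2 fell and 5 did not pass (61.5% called, against 37.4% of all genes, of which 19.5% rose and 17.8% fell), with a median of 0.00. The 6 were Anxa2, S100a10, Itgam, Itgb2, Fpr1 and Fpr2, and 5 of them passed in each fit that left out 1 library; Fpr2 did not without WT replicate 1 (limma adjusted p = 0.15). Fpr1, a formyl peptide receptor known to work with the urokinase receptor, had log2 levels of 7.31 and 7.30 in WT and 9.15 and 9.04 in cKO (difference 1.79, SE 0.10, limma adjusted p = 1.7e-13). Itgb2, the beta chain of the integrin Mac-1, a known partner of the receptor, rose by 0.71 (SE 0.03, limma adjusted p = 4.1e-15). Itgam, its alpha chain, rose by 1.63 (SE 0.18, limma adjusted p = 4.5e-08). Anxa2, which with S100a10 forms a plasminogen receptor, rose by 0.59 (SE 0.03, limma adjusted p = 4.6e-13). The falls were Eno1, a glycolytic enzyme that also binds plasminogen (log2 difference -0.33, SE 0.02, limma adjusted p = 1.6e-13), and Serpinb2, plasminogen activator inhibitor 2, which lost its call without WT replicate 1 (limma adjusted p = 0.25) and without cKO replicate 1 (limma adjusted p = 0.058).

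Other matrix metalloproteinases and ADAM genes were called about as often as all genes, and ADAMTS genes less often. In these families the called genes averaged log2 levels of 8.08 or higher in both groups. Those tested but not called averaged 5.09 or lower. The shares can therefore not be told apart from an effect of level. They also leave out Mmp8, Mmp9, Mmp27 and Adam8, which were picked for their rises. Of 20 other matrix metalloproteinases 16 had a row and 8 were tested, of which Mmp19 rose, Mmp3 and Mmp13 fell and 5 did not pass (37.5% called, against 37.4% of all genes, median -0.34). Mmp19 had log2 levels of 8.05 and 8.11 in WT and 8.83 and 8.84 in cKO (difference 0.76, SE 0.09, limma adjusted p = 1.4e-07). Of 11 tested ADAM genes other than Adam8, 2 rose and 2 fell (36.4% called, against 37.4% of all genes, median -0.31). The ubiquitous sheddases Adam10 and Adam17 fell, by log2 differences of -0.42 (SE 0.04, limma adjusted p = 1.2e-08) and -0.31 (SE 0.05, limma adjusted p = 4.9e-06). Adam9 rose by 0.47 (SE 0.05, limma adjusted p = 1.1e-07), and Adam15 rose by 0.18 (SE 0.07, limma adjusted p = 0.042), but not without WT replicate 2 (limma adjusted p = 0.27) or cKO replicate 2 (limma adjusted p = 0.35). Among 12 ADAMTS genes Adamts10 passed (8.33% called, against 37.4% of all genes), with a log2 difference of 0.28 (SE 0.09, limma adjusted p = 0.018) that was not called without WT replicate 1 (limma adjusted p = 0.059) or WT replicate 2 (limma adjusted p = 0.11). The membrane-anchored inhibitor gene Reck had a log2 difference of -0.35 (SE 0.30, limma adjusted p = 0.40), and Spock2, the other inhibitor tested, one of -0.19 (SE 0.54, limma adjusted p = 0.83).

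**Figure D4:**
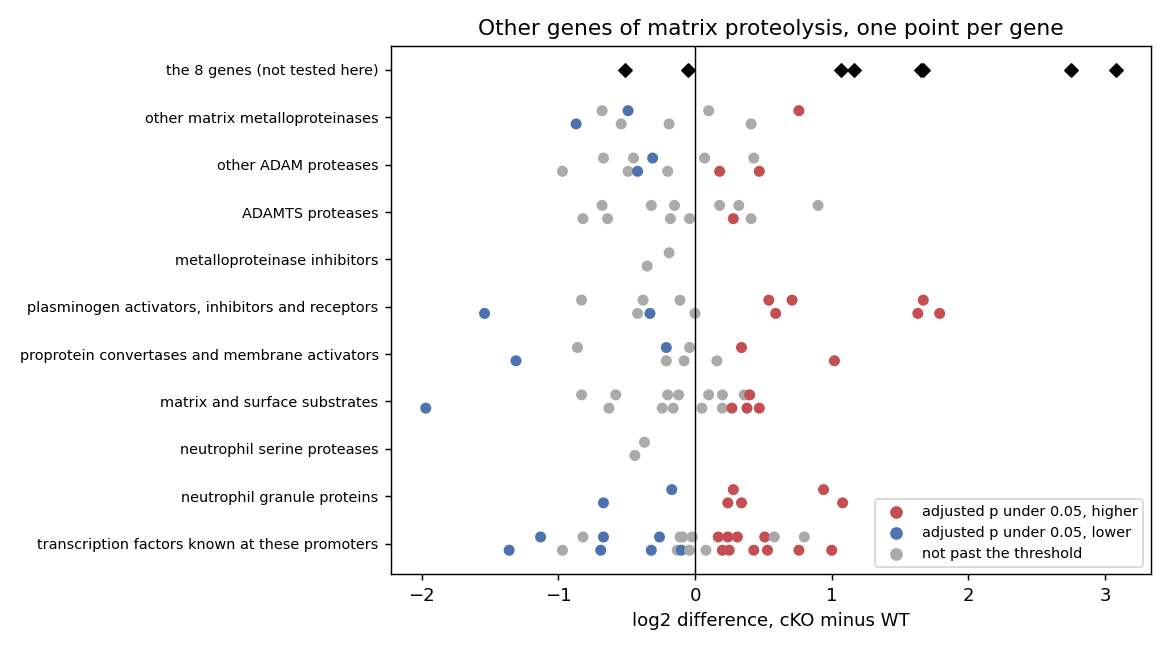
Log2 difference between cKO and WT (x axis) for the tested genes of each list (rows), 1 point per gene, red where higher and blue where lower at a limma adjusted p under 0.05 and grey otherwise; black diamonds are the 8 genes described here. Of the other genes, 31 lie to the right in red and 18 to the left in blue.

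Activators and substrates of these proteases were followed as 2 further lists. Of 9 tested proprotein convertases and cofactors of membrane proteases, 2 rose and 2 fell (44.4% called, against 37.4% of all genes, median -0.08). Tspan14, a tetraspanin partner of ADAM10, rose by 1.02 (SE 0.10, limma adjusted p = 6.4e-09), and Frmd8, a cofactor of ADAM17, by 0.34 (SE 0.05, limma adjusted p = 3.0e-06). Furin, which removes the prodomains of several metalloproteases, had a log2 difference of -0.21 (SE 0.02, limma adjusted p = 1.4e-07). St14, the membrane protease matriptase, had one of -1.31 (SE 0.44, limma adjusted p = 0.020), which was not called without WT replicate 1 (limma adjusted p = 0.085), WT replicate 2 (limma adjusted p = 0.11) or cKO replicate 2 (limma adjusted p = 0.12). Of 17 tested substrates, 4 rose and 1 fell (29.4% called, against 37.4% of all genes, median 0.05). Spp1, osteopontin, rose by 0.38 (SE 0.01, limma adjusted p = 5.6e-20), but by 0.00 under quantile normalization. The shed adhesion receptor gene Cd44 rose by 0.27 (SE 0.04, limma adjusted p = 2.7e-06), and the matrix gene Thbs1 fell by a log2 difference of -1.97 (SE 0.48, limma adjusted p = 2.0e-03).

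Mmp8 and Mmp9 are granule genes, so other neutrophil genes were set beside them. The list of 17 neutrophil genes also held genes that are not of granules, such as Cxcr2 and Padi4. Of the 17, 7 had a row, and all 7 were called, 5 higher and 2 lower (37.4% of all genes were called), with a median of 0.28. With 1 library left out, the log2 difference ranged from 0.2 to 0.47 for Cxcr2, from -0.87 to -0.47 for Cybb and from -0.23 to -0.11 for Padi4. These calls were not firm. Without a filter on low values, Cxcr2 (limma adjusted p = 0.22), Cybb (limma adjusted p = 0.15) and Padi4 (limma adjusted p = 0.14) were not called. The adhesion gene Ceacam1 rose by 0.94 (SE 0.06, limma adjusted p = 1.8e-11), and Olfm4, of specific granules, by 1.08 (SE 0.13, limma adjusted p = 3.5e-07). Cyba, an oxidase subunit, rose by 0.28 (SE 0.02, limma adjusted p = 1.4e-09), but by 0.00 under quantile normalization, and Lcn2 rose by 0.24 (SE 0.07, limma adjusted p = 6.6e-03), with limma adjusted p = 0.051 without WT replicate 2. The falls were Cybb and Padi4. Among the neutrophil serine proteases, Prtn3 had a log2 difference of -0.44 (SE 0.28, limma adjusted p = 0.25) and Prss57 one of -0.37 (SE 0.28, limma adjusted p = 0.33). Of 10 neutrophil markers other than Mmp8 and Mmp9, 2 had a row, Cxcr2 and Lcn2, both also among the 17. These 2 summed to 67.2 and 70.6 per 1000000 in WT and 77.6 and 74.9 in cKO. Of 13 monocyte and macrophage markers 8 had a row and 7 were tested, of which 4 rose, where 19.5% of all genes rose. Cd14 rose by 1.17 (SE 0.05, limma adjusted p = 9.9e-15), Cd68 by 0.77 (SE 0.03, limma adjusted p = 3.5e-15), Ccr2 by 0.63 (SE 0.06, limma adjusted p = 1.9e-08) and Adgre1 by 0.09 (SE 0.02, limma adjusted p = 3.3e-05). The sum of the list, 5540 and 5640 per 1000000 in WT and 5650 and 5750 in cKO, was nearly all Adgre1. The share of Adgre1 averaged 5210 per 1000000 in WT and 5090 in cKO, so its rise was in log2 level only. The part of neutrophil or monocyte numbers in the rises was not tested.

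The rule that picked the 8 genes did not use their position. The 8 are not counted among the neighbours below. Mmp8 and Mmp27 were picked for their rises out of 1 cluster, so the counts around them partly follow from that choice. Within 500000 bases of their starts lay 108 other tested genes, of which 18 rose and 22 fell, or 37.0%, near the 37.4% of all genes; the median was -0.08. Around Mmp8 and Mmp27, 1 of 9 rose and 4 fell. The rise nearest to them was that of Tmem123, 206 kb from Mmp8 (log2 difference 0.40, SE 0.03, limma adjusted p = 9.7e-11). For Mmp9, 5 of 22 neighbours rose and 5 fell, the nearest being the zinc finger gene Zfp335, 29.0 kb away (log2 difference -0.45, SE 0.12, limma adjusted p = 2.8e-03), and its antisense transcript Zfp335os, whose rise was called with all 4 libraries (log2 difference 1.08, SE 0.40, limma adjusted p = 0.038) and lost without WT replicate 1 (limma adjusted p = 0.22), WT replicate 2 (limma adjusted p = 0.070) or cKO replicate 2 (limma adjusted p = 0.11). Of 8 tested neighbours of Adam8, the overlapping Gm16201 rose by 0.82 (SE 0.13, limma adjusted p = 1.7e-05) and the tubulin complex gene Tubgcp2 had a log2 difference of -0.49 (SE 0.07, limma adjusted p = 3.8e-06).

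Around Plaur 2 of 24 neighbours rose and 3 fell (20.8% called, against 37.4% of all genes). Several of them were weakly expressed, such as Zfp111, Zfp575 and Phldb3, with log2 levels of 2.74 or lower and SEs of 0.49 to 0.57. The share was not adjusted for level. Nearest were the DNA repair gene Xrcc1, 83.8 kb away, with a log2 difference of -0.44 (SE 0.10, limma adjusted p = 1.1e-03, and limma adjusted p = 0.055 without WT replicate 1), and the potassium channel gene Kcnn4, 92.2 kb away, with -0.34 (SE 0.04, limma adjusted p = 6.1e-07). Timp1 had 12 tested neighbours, of which 2 rose and 3 fell (41.7% called, near the share of all genes). Cfp, which encodes the complement regulator properdin and starts 61.4 kb from Timp1, rose by 1.05 (SE 0.02, limma adjusted p = 1.7e-21), and the ubiquitin protease gene Usp11 by 0.40 (SE 0.08, limma adjusted p = 1.4e-04). Lgals3bp, 46.4 kb from Timp2, had a log2 difference of -0.59 (SE 0.04, limma adjusted p = 8.1e-12), and Cyth1 one of 0.35 (SE 0.09, limma adjusted p = 2.8e-03). Near Plau, Camk2g rose by 0.25 (SE 0.08, limma adjusted p = 0.012) and Zswim8 by 0.46 (SE 0.14, limma adjusted p = 0.012), which were lost without WT replicate 1 (limma adjusted p = 0.26) and without WT replicate 2 (limma adjusted p = 0.071).

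**Figure D5:**
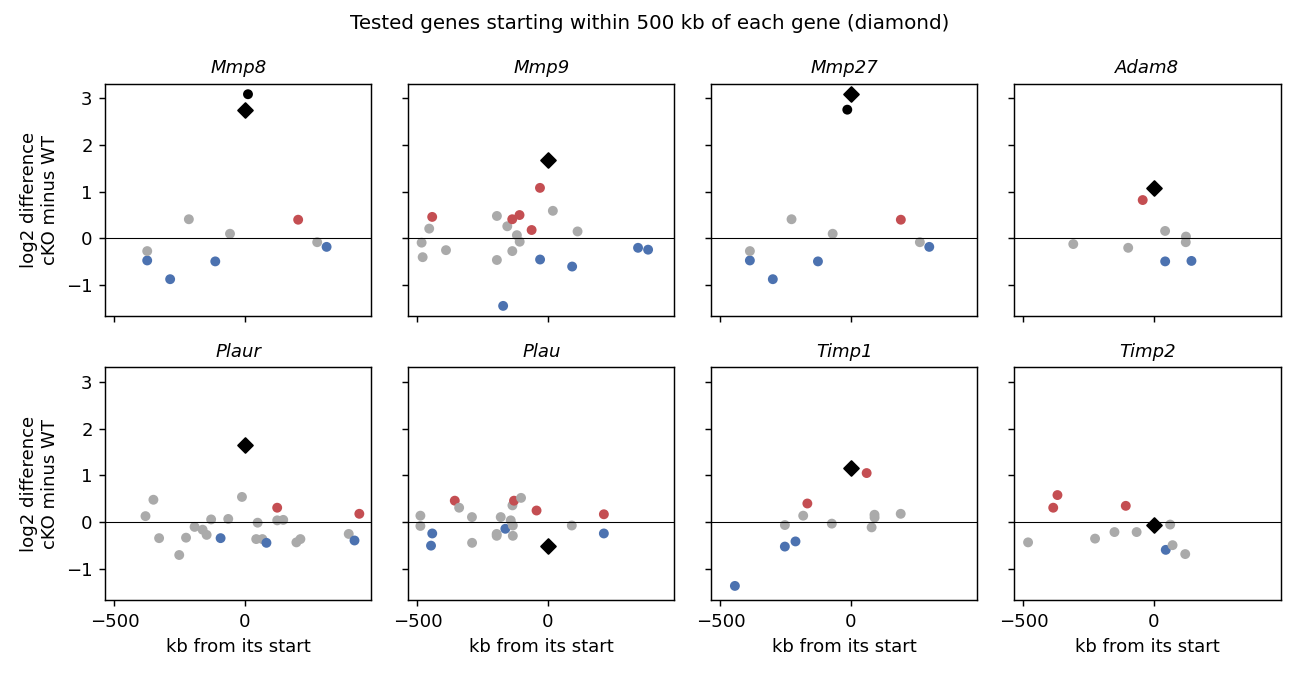
Log2 difference between cKO and WT (y axis) of the tested genes against the distance of their start from that of each of the 8 genes (x axis, kb), which is drawn as a black diamond; red and blue mark neighbours higher and lower at a limma adjusted p under 0.05, and a black point another of the 8. With each gene counted once, 18 neighbours are higher and 22 lower. The neighbours shared by Mmp8 and Mmp27 are drawn in both of their panels.

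Likeness of pattern was measured as the root mean square difference of the 4 log2 levels after subtracting each gene's own mean, over 8487 other genes at 5 or more per 1000000. With 2 libraries a group this mostly compares the size of the difference between the genotypes. The gene nearest to Mmp9 was Plaur, and the gene nearest to Plaur was Mmp9 (0.019 log2 units); next for both was the stefin gene Stfa3 (0.030 and 0.023), one of a cluster of near-identical copies. Adam8 was closest to Prr13 (0.013) and to Cfp (0.016), the neighbour of Timp1 named above. Mmp8 was closest to Wfdc18 (0.097), with log2 levels of 7.76 and 7.91 in WT and 10.79 and 10.75 in cKO, and to the lectin-like receptor gene Klra2 (0.114). Mmp27 was closest to Hsd11b1 (0.131), the enzyme that reactivates glucocorticoids, and to Stfa1 (0.140). Plau, Timp1 and Timp2 were below the level set for this comparison.

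The other genes stood at these places in GRCm38. Mmp9 (ENSMUSG00000017737.2) lies on chromosome 2 from 164940780 to 164955850 on the plus strand and Adam8 (ENSMUSG00000025473.16) on chromosome 7 from 139978932 to 139992562 on the minus strand. Plau (ENSMUSG00000021822.3) lies on chromosome 14 from 20836660 to 20843385 on the plus strand. Timp1 (ENSMUSG00000001131.11) lies on chromosome X from 20870166 to 20874735 on the plus strand and Timp2 (ENSMUSG00000017466.9) on chromosome 11 from 118301069 to 118355740 on the minus strand. All 8 are annotated as protein-coding.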

How the data were processed

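RNA-seq of 4 libraries was used. The submitters' processing notes name DESeq2, featureCounts, HISAT2 2.1.0, CASAVA and the build GRCm38, without roles or order. Values deposited by the authors are a score for each gene in each library (-3.19 to 27.9), on a log scale whose base is not given in the sources used here. Columns matched samples by title, and 0 columns were left out. The replicate noise was compared with Poisson noise: the median ratio was 1.11 in WT and 1.30 in cKO if the scores are log2 levels times 1.44, and 4.87 and 5.99 if plain log2. All scores were therefore multiplied by 0.693. That reading lay closest to counting noise.

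The 15527 genes whose score reached 1 in 2 or more libraries were tested with limma 3.58.1 in R 4.3.3 (trended prior, two-sided, Benjamini-Hochberg, threshold 0.05). SEs come from the moderated variance; differences are cKO minus WT. The test was tested on simulated data. Alternatives were other filters, normalizations, priors and thresholds, a replicate block and leaving out each library. Positions come from GENCODE M21, in which 27162 symbols matched 1 gene, and upstream windows from RefSeq (GRCm38.p6).

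The genes, lists and tests were chosen with earlier results of these data known. Named genes were the 8, Ybx1, up to 4 called genes of each list with the smallest p-values, or up to 2 of the highest level where none was called, the 2 nearest called neighbours and the 2 most alike genes; exceptions are named as such. Some genes that the rule names are not reported here. Tables and plots were made in Python 3.11.15 (matplotlib 3.10.9, numpy 2.4.6, pandas 2.3.3).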

Additional observations from a re-analysis of the deposited data

How the results depend on the processing

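The 6 rises among the 8 genes kept their direction under every alternative run. Leaving out each library in turn gave log2 differences of 2.66 to 2.83 for Mmp8, 2.92 to 3.25 for Mmp27, 1.64 to 1.71 for Mmp9, 1.63 to 1.68 for Plaur, 1.06 to 1.08 for Adam8, 1.07 to 1.26 for Timp1 and -0.63 to -0.40 for Plau. Timp2 changed sign: 0.01 under quantile normalization, 0.02 under a median shift, and from -0.65 to 0.55 with 1 library left out. With 1 library left out, Prtn3 ranged from -1.07 to 0.19 and Spock2 from -0.43 to 0.05. Under a prior without the trend on expression level, limma called 2267 genes in place of 5803, 18 in place of 49 of the list genes and 16 in place of 40 of the neighbours, and 38 of 63 called named genes lost their call. Without a filter on low values 30 of the list genes were called. The cause was not tested. Leaving out 1 library gave 4672 to 5810 called genes, 36 to 45 of the list genes and 30 to 40 of the neighbours, and 66.3% of the called genes passed in each such fit. The deviations of same-numbered libraries were not correlated across genes (0.01), which cannot show whether these libraries were prepared together. With a replicate block 6026 genes, 50 list genes and 40 neighbours were called.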
